A study of Mus musculus with 24 samples.

Results

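The genes described here encode receptors for glutamate, GABA, acetylcholine and serotonin. Members were all protein-coding genes in RefSeq's annotation of GRCm38.p6, on which mouse build mm10 is based, whose symbols stand for AMPA, kainate, NMDA, delta and metabotropic glutamate receptors, GABA-A receptors, nicotinic and muscarinic acetylcholine receptors or serotonin receptors. There were 81 such genes, of which 38 had at least 1 listed region that overlapped the gene or lay within 2 kb of it. These genes held 140 of the 53386 regions listed for the series. Regions that reached to within 2 kb of the start or the end of the gene were called gene end (67 regions), and the others, inside a gene, gene body (73 regions). Grid2ip, a member by its symbol, encodes a protein that binds a delta receptor and is not itself a receptor.

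The study measured dimethylation of lysine 9 of histone H3 (H3K9me2) by chromatin immunoprecipitation and sequencing in hearts of 6 mice of strain C57BL6, 3 female and 3 male, aged 12 months. Every heart had undergone ischemic preconditioning, that is 4 rounds of coronary ligation for 5 min and release for 5 min, with a closing reperfusion of 30 min. Each heart gave a biopsy of the area at risk, the muscle supplied by the ligated artery, and one of the remote myocardium, and each biopsy gave an H3K9me2 library and an input library of the same chromatin before precipitation. The 24 libraries thus form 4 groups of 6 that share the same 6 mice, and sham hearts were not analysed here, so no value below compares a preconditioned heart with another heart.

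H3K9me2 is a histone mark of transcriptionally silent chromatin, deposited mainly by the methyltransferases G9a and GLP, and it covers broad domains rather than sharp peaks. Active promoters are usually poor in it. Most of the receptors named here are known from the nervous system. In the heart, acetylcholine released by vagal nerve endings slows the beat through the muscarinic M2 receptor, encoded by Chrm2, and serotonin acts on heart muscle and valves through receptors such as that encoded by Htr2b. A biopsy holds muscle cells, fibroblasts, vessel cells, immune cells and nerve fibres together, so the share of cells that carry the mark and the level per cell cannot be told apart.

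Neither Chrm2 nor Htr2b had a listed region. No listed region lay within 2 kb of any of the 6 alpha, 3 beta or 3 gamma subunit genes of the GABA-A receptor, and the family was represented by Gabrd, Gabrq and Gabrr2 alone, with 1 region each. All 5 subunit genes of the muscle-type nicotinic receptor had regions, as had 5 of 11 neuronal nicotinic subunits, 4 of 7 NMDA, 3 of 5 kainate, 2 of 4 AMPA, 5 of 8 metabotropic glutamate, 3 of 5 muscarinic and 6 of 14 serotonin receptor genes. The share of receptor genes with a region, 46.9%, lay below the 55.0% of all 21896 coding genes. Receptor genes without a region were longer, with a median length of 122.8 kb against 20.8 kb for those with one. Over all coding genes the order was the opposite, 12.2 kb without and 21.3 kb with a region. Of the 5 receptor genes on the X chromosome only Gabrq had a region. A gene without a listed region has no value here, and nothing follows about the mark on it.

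Regions were unevenly spread over the genes. Grik4, a subunit of the kainate receptor, held 18 regions, Grm4, a metabotropic glutamate receptor that inhibits adenylyl cyclase, held 15, and Grik5, another kainate subunit, held 10. The regions ran from 1000 to 11200 bases with a median of 2800. They are not independent of each other, since 58 of the 140 overlap another listed region and 9 hold no read in any library. Of the 67 gene end regions 42 also touched another coding gene, against 1 of the 73 gene body regions. Touching here means overlapping a gene or lying within 2 kb of it. A region can therefore hold no base of its receptor gene, as in called regions of Chrm4, Chrne, Grik5 and Grin2d. After the filter on low counts 110 regions could be tested in each comparison with input. These 110 lie in 35 genes, and Chrna2, Gabrq and Gria4 had no testable region.

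Total counts in the listed regions ran from 416683 to 1196368 per H3K9me2 library and from 1286383 to 2478668 per input library. The share of input counts on the X chromosome was 0.126% to 0.180% in libraries labelled female and 0.0623% to 0.0818% in those labelled male; the ranges did not overlap. Levels below are CPM (counts scaled to the library total), scaled over the 24 libraries. A log2 fold change above 0 means more H3K9me2 than input, and a region is called at a Benjamini-Hochberg FDR under 0.05 over all tested regions of the series, in edgeR's quasi-likelihood test on 6 against 6 libraries. Scaling used only reads in listed regions, which makes every value relative to the average of those regions.

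Transcription start sites were known from the RefSeq promoter table (GRCm38.p6) for 29 of the 38 genes. Called regions contained such a start site in Chrnb1, Grik4, Grin2c, Grin3b and Grm8. Sequences of 4 of these promoters are shown because called regions cover them and because they differ in CpG content. Each runs 5′ to 3′ on the strand of the gene from 250 bases before the start to 50 after it, and capitals mark every CG dinucleotide. In Grik4, Grin2c and Grin3b, 3 glutamate receptor genes, the region around the start site lay below input in the remote myocardium. In Grm8, a metabotropic glutamate receptor, it lay above. These regions are wider than the printed windows, and those of Grin2c and Grin3b also touch Fdxr and Wdr18. Of 13 tested regions with a start site inside, 30.8% were lower and 7.69% higher, beside 38.6% and 7.2% of all gene end regions.
Grik4, chr9:42944322-42944621, minus strand: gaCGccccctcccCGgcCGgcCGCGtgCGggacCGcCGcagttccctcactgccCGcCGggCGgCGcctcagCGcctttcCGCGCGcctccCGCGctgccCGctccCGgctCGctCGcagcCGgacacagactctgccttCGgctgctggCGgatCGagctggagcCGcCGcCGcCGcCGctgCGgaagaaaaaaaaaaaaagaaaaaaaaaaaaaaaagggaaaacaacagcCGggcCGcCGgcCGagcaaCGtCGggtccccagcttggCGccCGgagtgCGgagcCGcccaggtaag
Grin2c, chr11:115267194-115267493, minus strand: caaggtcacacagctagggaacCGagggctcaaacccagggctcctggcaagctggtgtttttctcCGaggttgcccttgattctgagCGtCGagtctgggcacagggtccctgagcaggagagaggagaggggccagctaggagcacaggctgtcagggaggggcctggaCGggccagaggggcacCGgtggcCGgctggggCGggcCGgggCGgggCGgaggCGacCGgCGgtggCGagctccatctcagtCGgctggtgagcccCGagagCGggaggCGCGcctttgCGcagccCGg
Grin3b, chr10:79970474-79970773, plus strand: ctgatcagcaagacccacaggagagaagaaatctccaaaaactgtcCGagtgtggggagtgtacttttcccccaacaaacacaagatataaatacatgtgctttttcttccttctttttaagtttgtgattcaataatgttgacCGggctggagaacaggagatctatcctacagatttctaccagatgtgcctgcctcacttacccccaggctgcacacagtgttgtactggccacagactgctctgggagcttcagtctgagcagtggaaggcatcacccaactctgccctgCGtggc
Grm8, chr6:28135097-28135396, minus strand: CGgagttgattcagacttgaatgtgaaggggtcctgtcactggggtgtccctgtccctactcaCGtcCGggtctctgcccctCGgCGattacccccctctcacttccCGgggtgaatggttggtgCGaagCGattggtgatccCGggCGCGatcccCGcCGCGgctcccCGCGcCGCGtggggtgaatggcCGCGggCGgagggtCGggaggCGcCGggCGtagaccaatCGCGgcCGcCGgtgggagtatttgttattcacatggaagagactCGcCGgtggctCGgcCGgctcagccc
The Grik4 window holds 42 CG dinucleotides, as many as or more than 97.4% of the 32851 promoters of the table. The Grm8 window holds 33, which 92.3% of promoters do not exceed, and another start site of Grm8 in the same region has 10. Grin2c holds 22 (78.5%) and Grin3b only 3 (31.4%), while the median promoter has 7 and 94.6% have at least 1. Regions with a CG-rich window thus stood on both sides of input, in Grik4 below and in Grm8 above it.

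The comparison of H3K9me2 with input in the remote myocardium asks where along the receptor genes the mark was dense in tissue that was not occluded. Among called regions, those in receptor gene bodies lay above input with 1 exception, and those below input were otherwise gene ends. Kainate, AMPA, delta, metabotropic glutamate, serotonin and neuronal nicotinic receptor genes carried the higher regions. NMDA, muscle-type nicotinic, muscarinic and GABA-A receptor genes carried none. Gene ends made up 12 of 13 tested muscle-type nicotinic regions, 6 of 7 muscarinic, 9 of 16 NMDA and 2 of 2 GABA-A regions. Of all gene end regions of the series 7.2% were higher, and the difference between receptor classes was not tested. Of the 110 tested regions 33 were higher than input and 15 lower. Over all tested regions of the series 20.5% were higher and 20% lower, 40.5% in all. In gene bodies 28 of 58 regions were higher and 1 was lower, against 18.8% and 15.4% of all gene body regions. Receptor regions were classed by the ends of their own gene, and all regions by the ends of any coding gene. By the latter rule the 1 lower region would be a gene end. At gene ends 5 of 52 were higher and 14 lower, against 7.2% and 38.6% of all gene end regions. The median log2 fold change was 0.35 in receptor gene bodies, beside 0.03 for all gene bodies, and -0.17 at receptor gene ends, beside -0.30 for all gene ends. Intergenic regions, within 2 kb of no coding gene, had a median of 0.31, and 39.7% of them were higher. The gene end median was -0.11 without mouse 17 or mouse 19 and -0.10 without mouse 30.

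**Figure D1:**
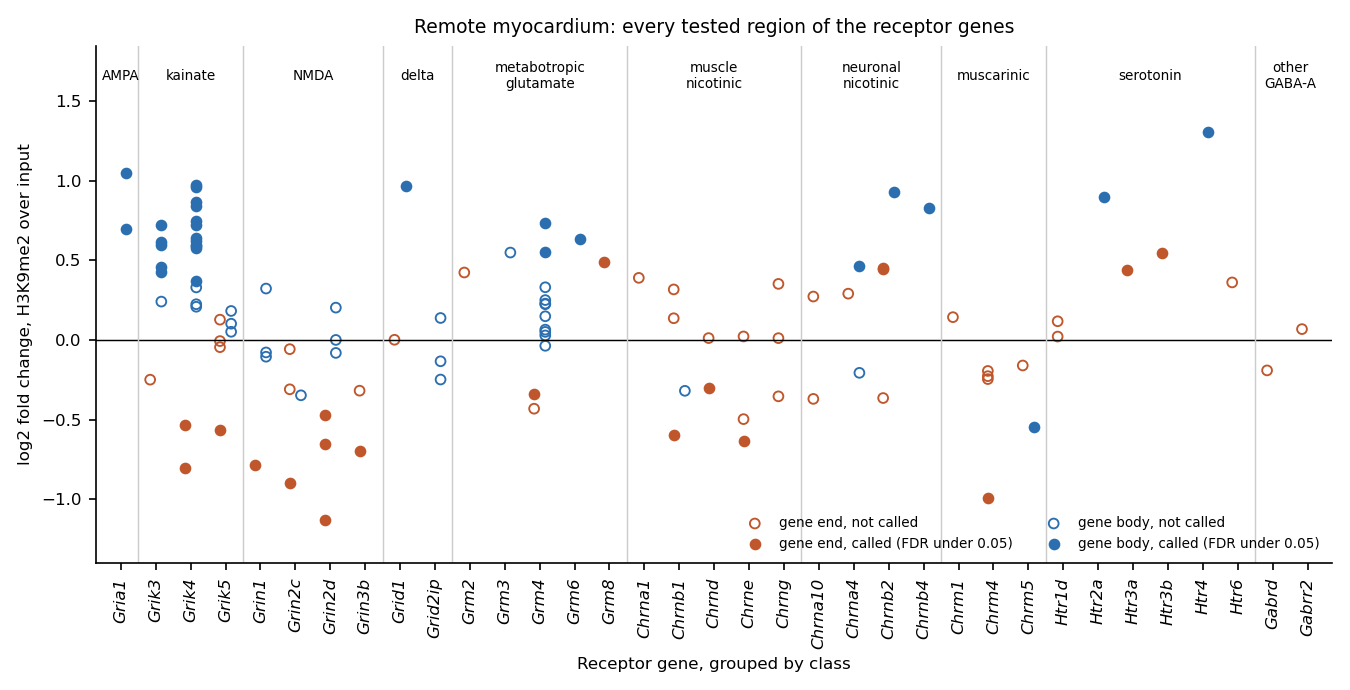
Log2 fold change of H3K9me2 over input in the remote myocardium (vertical axis) for each of the 110 tested regions, by gene and receptor class (horizontal axis), with gene end regions in orange, gene body regions in blue and called regions filled. The called gene body regions lie above 0 except 1 in Chrm5, and 14 of the 19 called gene end regions lie below it.

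Grik4 supplied much of this pattern. It encodes a high-affinity kainate receptor subunit that forms channels only together with other subunits. Of its 17 tested regions 12 were higher than input and 2 lower in the remote myocardium, all 12 in the gene body and both lower ones at the start of the gene. Grik3, which encodes a low-affinity kainate subunit, had 5 of 7 regions higher, all in the gene body. Grik5, the other high-affinity subunit, had 1 of 7 lower and none higher. Without Grik4 the remote gene bodies held 16 of 43 higher regions, and without Grik4 and Grik3 they held 11 of 37 (29.7%) with a median of 0.18. The share of all gene bodies that was higher, 18.8%, lay below both.

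The region of Grik4 with the smallest p, at chr9:42620200-42622999 and 321 kb from the start site, held 32.2, 47.3 and 68.5 CPM (lowest, median and highest of 6) in H3K9me2 of the remote myocardium and 19.7, 24.8 and 28.5 CPM in its input. In the area at risk the values were 30.6, 39.7 and 62.9 CPM against 21.4, 22.7 and 26.8 CPM. The groups did not overlap in either biopsy. Its log2 fold change was 0.96 (SE 0.15, edgeR adjusted p = 2.02e-08) in the remote myocardium and 0.77 (SE 0.16, adjusted p = 0.000452) in the area at risk, higher in 6 of 6 mice in both. The region around the Grik4 start site, at chr9:42943600-42946199, whose promoter is printed above, held 6.22, 14 and 19.1 CPM in H3K9me2 of the remote myocardium against 15.8, 20.7 and 23.7 CPM in input. These ranges overlapped, and H3K9me2 was the lower of the pair in 6 of 6 mice (log2 fold change -0.54, SE 0.21, adjusted p = 0.0352). Whether the call at the start site held in DESeq2 or without 1 mouse was not examined. The next region, 0.772 kb into the gene at chr9:42939800-42943599, had a log2 fold change of -0.81 (SE 0.27, adjusted p = 0.0111) from only 2 to 9 reads per H3K9me2 library, lower in 4 of 6 mice. This call did not hold in DESeq2 (-0.79) or without mouse 30 (-0.51).

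Along Grik4 the values changed with distance from the start. At 8.17 kb the remote log2 fold change was 0.21, at 13.8 kb 0.59 and at 23.8 kb 0.23, of which the 0.59 was called. All 11 tested regions from 35.0 kb to 330 kb were called higher, with values between 0.37 and 0.97. The region nearest the far end, at 370 kb, had 0.33 and was not called. The regions at 328 and 330 kb overlap each other. Grik3 had -0.25 at 1.1 kb and 0.24 at 2.30 kb, neither called, and 0.43 to 0.72 in the 5 called regions from 12.3 kb to 159 kb. In both genes the regions near the start site were the lowest.

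**Figure D2:**
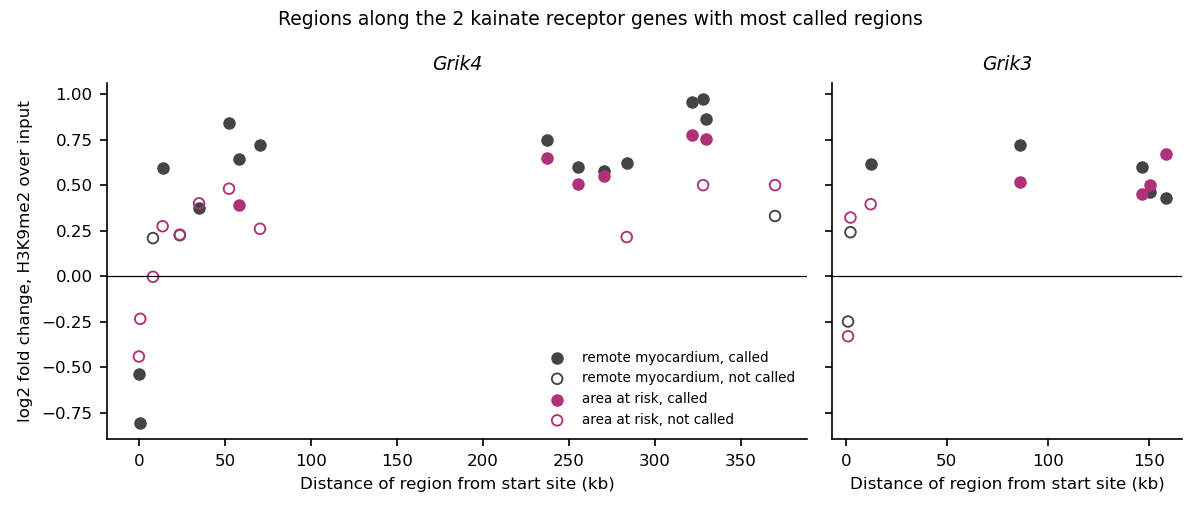
Log2 fold change of H3K9me2 over input (vertical axis) against the distance in kb between a region and the annotated start site (horizontal axis) for the tested regions of Grik4 and Grik3, in the remote myocardium (grey) and the area at risk (magenta), filled where called. In both genes the lowest values lie within 2 kb of the start, and all filled points beyond 10 kb lie above 0.

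Serotonin receptor genes had 4 of 7 tested regions higher and none lower, with a median of 0.44. Htr4 encodes a receptor coupled to the stimulatory G protein Gs. Its single region, in the gene body at chr18:62475600-62477999, held 33.4, 44.5 and 65.5 CPM in H3K9me2 of the remote myocardium and 14.3, 18.2 and 22.4 CPM in input. All 6 H3K9me2 libraries lay above all 6 inputs. The log2 fold change of 1.30 (SE 0.16, edgeR adjusted p = 9.23e-13) was the highest of the tested receptor regions. Htr2a encodes a Gq-coupled receptor, and its gene body region at chr14:74669400-74672599 held 33.4, 42.7 and 61 CPM against 18.4, 22.3 and 32.8 CPM. Again the groups did not overlap (log2 fold change 0.90, SE 0.15, adjusted p = 3.03e-07). Htr3a and Htr3b encode the subunits of the serotonin-gated channel, and each had 1 gene end region, at 0.44 (adjusted p = 0.00268) and 0.55 (adjusted p = 0.0171). Regions of Htr1d and Htr6 were not called.

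Gria1, an AMPA receptor subunit, had both of its tested regions higher. The one at chr11:57200600-57201799 held 15, 25.2 and 34.2 CPM in H3K9me2 and 7.31, 10.4 and 15.9 CPM in input of the remote myocardium. The ranges overlapped slightly, and H3K9me2 was higher in 6 of 6 mice (log2 fold change 1.05, SE 0.21, adjusted p = 2.04e-05). The other, at chr11:57310000-57312799, had 0.70 (adjusted p = 0.000245). Grid1, a delta receptor that organises synapses with its extracellular partners, had 27.2, 37.2 and 53.7 CPM against 15.8, 16.5 and 25.9 CPM at chr14:34917000-34919799 and no overlap (0.97, SE 0.17, adjusted p = 4.11e-07). Among metabotropic glutamate receptors Grm6, the receptor of retinal ON bipolar cells, had 0.64 (adjusted p = 0.00273) and Grm8, at its start site, 0.49 (adjusted p = 0.0171). The Grm8 region at chr6:28132600-28135399 held 21.2, 29.4 and 34.2 CPM against 16.1, 20.5 and 22.8 CPM. Those ranges overlapped slightly, and H3K9me2 was higher in 6 of 6 mice.

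Grm4 was called in both directions, as was Grik4. In the gene body the region of smallest p, at chr17:27457200-27462199, had 41.3, 58.8 and 71.5 CPM against 33, 37.3 and 45.6 CPM in the remote myocardium (0.55, SE 0.13, adjusted p = 0.000187). Another body region at chr17:27438600-27440599 had 0.74 (adjusted p = 0.000551). Across the gene boundary at the higher coordinate, over the 11200 bases of chr17:27505400-27516599, H3K9me2 had 45, 50.1 and 51.4 CPM against 58.9, 60.9 and 69.8 CPM. Here all H3K9me2 libraries lay below all inputs (-0.34, SE 0.12, adjusted p = 0.016). The other 10 of its 13 tested regions were not called.

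Nicotinic receptor genes of neuronal subunits had 5 of 10 tested regions higher and none lower, 3 of them among 4 gene body and 2 among 6 gene end regions. Over the whole series 20.5% of tested regions were higher, 18.8% in gene bodies and 7.2% at gene ends. Nicotinic receptor genes of muscle subunits had none of 13 higher and 3 lower (23.1%, beside 20% of all tested regions). Of these 13 regions 12 were gene ends, of which 7.2% were higher and 38.6% lower over the whole series. The difference between the subunit types was not tested. Chrnb2 and Chrna4 encode the partners of the main high-affinity nicotinic receptor of the brain. The body region of Chrnb2 at chr3:89760600-89761999 held 19.1, 26.2 and 42 CPM against 10.1, 14.4 and 18.4 CPM (0.93, SE 0.19, adjusted p = 3.05e-05). Its groups did not overlap, and 2 of its gene end regions were also higher, at 0.45 and 0.44. The latter also touches Adar. Chrna4 had 1 body region higher (0.46, adjusted p = 0.00609). Chrnb4, a subunit of ganglionic nicotinic receptors, held 20.8, 28.5 and 35.8 CPM against 14.3, 15.9 and 20.4 CPM, again without overlap (0.83, SE 0.18, adjusted p = 7.18e-05).

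NMDA receptor genes supplied 6 of the 15 lower regions. Of their 16 tested regions 6 were lower (37.5%) and none higher, with a median of -0.31. All 6 were among their 9 gene end regions and also touched another coding gene, where 50.2% of all regions of the series were lower, and none of their 7 gene body regions was called. Grin2d encodes an NMDA subunit found mainly in the embryonic brain and in interneurons. The region at chr7:45867200-45871799 spans the gene boundary at the higher coordinate and lies 0.519 kb from the start site in the promoter table. It held 13.1, 20.5 and 26.2 CPM in H3K9me2 of the remote myocardium and 36.5, 43.8 and 52 CPM in input. The groups were well apart (-1.13, SE 0.16, adjusted p = 2.7e-09), and this region also touches Kdelr1, which encodes a receptor that returns proteins to the endoplasmic reticulum. Grin2c, a subunit known from the cerebellum, had at its start site 12.4, 21 and 33.4 CPM against 31.2, 39.7 and 43.9 CPM, at chr11:115266000-115269799. The ranges overlapped, with H3K9me2 lower in 6 of 6 mice (-0.90, SE 0.17, adjusted p = 2.52e-06), and the region also touches Fdxr, the mitochondrial ferredoxin reductase.

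Grin1, the subunit every NMDA receptor needs, had 20.1, 39.7 and 49.8 CPM against 58.9, 67 and 75 CPM at the end of the gene, at chr2:25288000-25296999, where Lrrc26 and Tmem210 also lie. No library of the groups overlapped (-0.79, SE 0.13, adjusted p = 9.1e-08). Grin3b, a glycine-binding subunit, had -0.70 (SE 0.14, adjusted p = 2.4e-05) over its start site, in a region that reaches Wdr18. Chrm4, the muscarinic M4 receptor, had -0.99 (SE 0.21, adjusted p = 2.84e-05) in a region outside its gene, within 2 kb of it. That region also touches Dgkz and Mdk. Chrne, the adult muscle nicotinic subunit, had -0.64 (adjusted p = 0.0125) in a region outside its gene, within 2 kb of it, that also touches Mink1. This region was not called without mouse 27 (-0.52) or mouse 30 (-0.53). Grik5 had -0.57 (adjusted p = 0.00265) in a region likewise outside its gene that also touches Zfp574. Chrnd, the delta subunit of the muscle receptor, had -0.30 (adjusted p = 0.0178), with 50.8, 68.3 and 73.1 CPM below 76, 80.6 and 90.3 CPM. This region, at chr1:87182800-87190799, covers the start site of Prss56 and overlaps only the edge of Chrnd, which begins at 87190597.

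Chrnb1, the beta subunit of the muscle receptor, had -0.59 (adjusted p = 0.0241) over its start site, close to Fgf11. The call was lost in DESeq2 (-0.59) and without mouse 17 (-0.55), mouse 19 (-0.44) or mouse 30 (-0.56). Chrm5, the muscarinic M5 receptor, supplied the 1 lower gene body region (-0.55, adjusted p = 0.0389), which covers the start site of Aven. It was not called in DESeq2 (-0.53) or without mouse 17 (-0.40), mouse 27 (-0.44) or mouse 30 (-0.43).

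Whether a gene end was shared with a neighbour went with the direction. Of the 14 lower gene end regions 11 touched another coding gene. Among receptor gene ends that touched their own gene only, 4 of 22 were higher and 3 lower, with a median of 0.05. Of all gene end regions that touch 1 coding gene 8.91% were higher and 33.8% lower. Among receptor gene ends that also touched another coding gene, 1 of 30 was higher and 11 lower, with a median of -0.31, beside 3.14% and 50.2% of all gene ends that touch several coding genes. The 3 lower regions on a receptor gene alone were those of Grik4 and Grm4. The part of the neighbouring gene in a shared region was not tested.

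**Figure D3:**
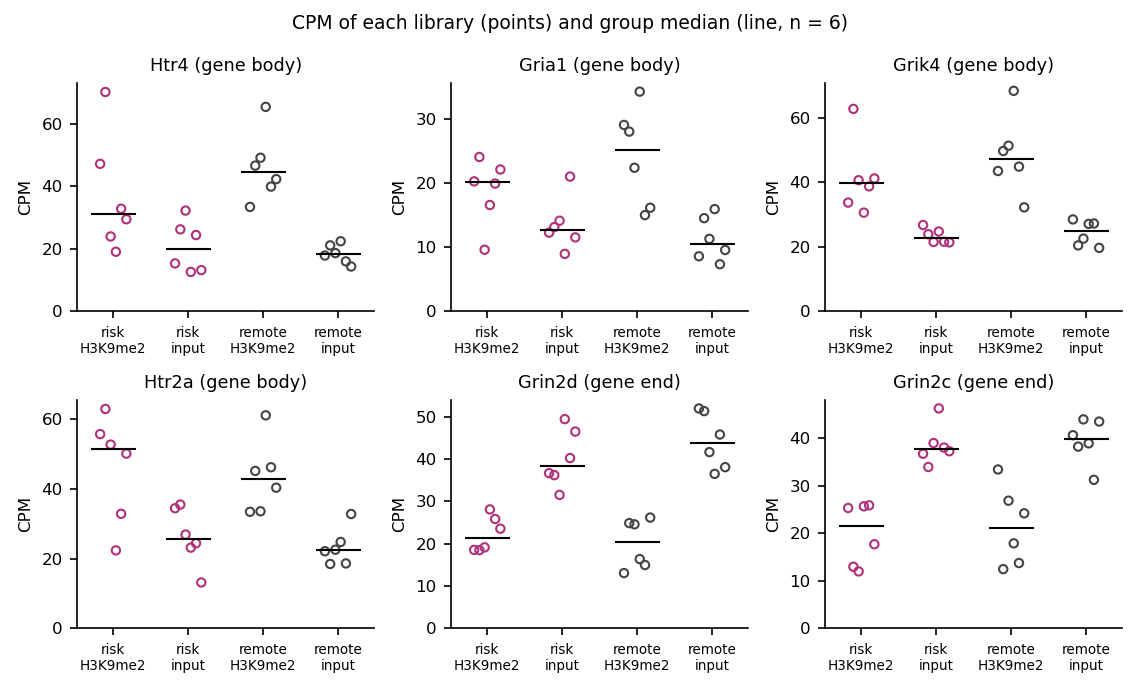
CPM (vertical axis) of each library, as points, with the group median as a line, in the region of smallest remote p of Htr4, Gria1, Grik4, Htr2a, Grin2d and Grin2c for the 4 groups of 6 libraries (horizontal axis; "risk" is the area at risk). In the first 4 genes the H3K9me2 medians lie above the input medians in both biopsies, and in Grin2d and Grin2c below.

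The same comparison in the area at risk used other libraries of the same mice. Receptor gene bodies again held the higher regions and gene ends the lower ones, with fewer calls. Of 110 tested regions 17 were higher and 7 lower, beside 11.3% and 12.3% of all tested regions, 23.6% in all. In gene bodies 16 of 58 were higher and none lower, with a median of 0.33 beside 0.03 for all gene bodies, of which 9.82% were higher and 7.7% lower. Intergenic regions had a median of 0.26, and 23.8% of them were higher. At gene ends 1 of 52 was higher and 7 lower, with a median of -0.07 beside -0.25 for all gene ends, of which 3.34% were higher and 26.7% lower. All 7 lower regions were among the 29 gene ends that touched another coding gene, where none was higher, beside 36.4% lower and 1.76% higher of all such gene ends. On the receptor gene alone 1 of 23 gene ends was higher and none lower, beside 4% and 22.7% of all gene ends that touch 1 coding gene. Kainate receptor genes had 10 of 31 regions higher and 1 lower, serotonin receptor genes 3 of 7 higher, and NMDA receptor genes 5 of 16 lower.

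Htr4 held 19, 31.1 and 70.3 CPM in H3K9me2 of the area at risk and 12.6, 19.8 and 32.2 CPM in input. These ranges overlapped, unlike those of the remote myocardium, and the log2 fold change was 0.80 (SE 0.22, edgeR adjusted p = 0.006), higher in 5 of 6 mice. It was not called without mouse 19 (0.63) or in DESeq2 (0.85). Htr2a had 0.73 (adjusted p = 0.00373, not called without mouse 30 at 0.54) and Grid1 0.79 (adjusted p = 0.00186). Htr3a, whose gene end at chr9:48895200-48901799 held 50.5, 61.3 and 79.5 CPM against 31.6, 38.2 and 45 CPM, was the 1 gene end called higher and its groups did not overlap (0.66, SE 0.14, adjusted p = 0.000335).

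Grik4 had 6 body regions higher and none lower in the area at risk, and the regions at its start had -0.44 and -0.23, neither called. Grik3 had 4 higher. Its region at chr4:125649200-125651599 held 22.3, 30.1 and 42.7 CPM against 13.7, 19.7 and 21.9 CPM without overlap (0.67, adjusted p = 0.00616), and the call was lost without mouse 30 (0.47). Gria1 had 0.50 and 0.44 and was not called, with adjusted p = 0.115 and 0.052. Chrnb2 (0.60), Chrna4 (0.44) and Grm4 (0.39) were called at adjusted p = 0.0437, 0.0449 and 0.0438. Each of these 3 calls was lost in DESeq2, and each was lost in 5 of the 6 omissions of a mouse, all but mouse 30 for Chrnb2, mouse 19 for Chrna4 and mouse 23 for Grm4, with values down to 0.52 for Chrnb2 without mouse 19, 0.34 for Chrna4 without mouse 30 and 0.29 for Grm4 without mouse 17.

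On the lower side Grin2d held 7.36, 9.76 and 16.9 CPM in H3K9me2 and 21.5, 27.4 and 29.3 CPM in input at chr7:45872400-45874999, which covers the start site of Kdelr1. This region lies outside Grin2d, within 2 kb of it. The groups did not overlap (-1.30, SE 0.22, adjusted p = 1.81e-05). The region nearer the Grin2d start site, described above, had 18.5, 21.4 and 28.1 CPM against 31.6, 38.5 and 49.5 CPM, also without overlap (-0.80, adjusted p = 0.000323). Grin2c had 12, 21.5 and 25.9 CPM against 33.9, 37.6 and 46.2 CPM (-0.87, SE 0.17, adjusted p = 0.000193), with no overlap either. Grin1 had -0.58 (adjusted p = 0.000893) and Grin3b, in a region reaching Tmem259, -0.70 (adjusted p = 0.00152). The region outside Grik5 had -0.55 (adjusted p = 0.0121), lost without mouse 19 or mouse 30 (-0.46 in each). The region outside Chrne had -0.62 (adjusted p = 0.032), lost in DESeq2 (-0.61) and without mouse 17 (-0.57), mouse 19 (-0.53) or mouse 23 (-0.64). Without mouse 19 the regions higher in the area at risk numbered 8 in place of 17, without mouse 17 they numbered 10, and without Grik4 and Grik3 they numbered 7.

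Most calls of the area at risk recurred in the remote myocardium. Of the 17 regions higher in the area at risk 16 were also higher in the remote myocardium, which is 94.1% of the former and 48.5% of the 33 of the latter, beside 81.6% and 45.3% over all regions of the series. Of the 7 lower regions 6 were shared, 85.7% of the 7 and 40% of the 15 of the remote myocardium, beside 83.6% and 51.6% over all regions. In all, H3K9me2 lay above input without overlap of the 6 libraries in 14 tested regions of the remote myocardium and 7 of the area at risk, beside 6.74% and 2.21% of all tested regions. It lay below without overlap in 5 and 4, beside 8.47% and 5.69%. The smaller number of calls in the area at risk is no test of a difference between biopsies.

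**Figure D4:**
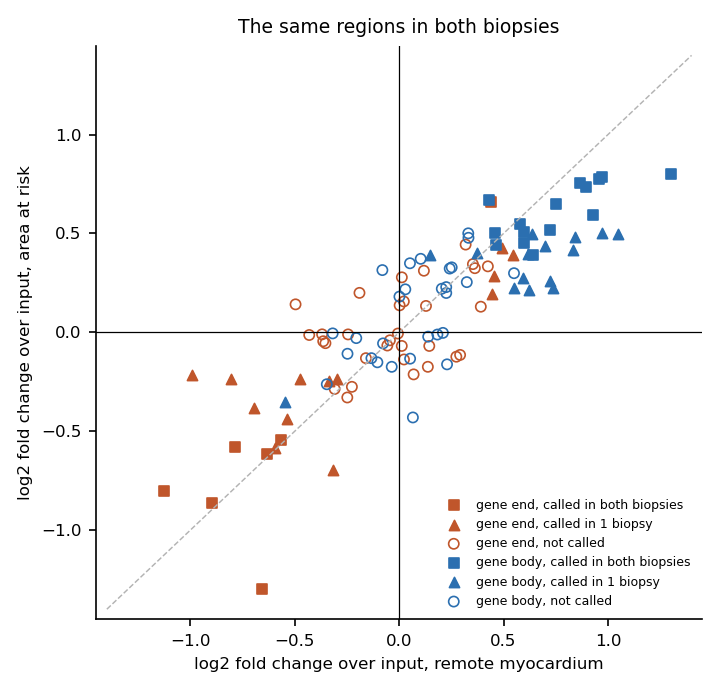
Log2 fold change of H3K9me2 over input in the area at risk (vertical axis) against that in the remote myocardium (horizontal axis) for receptor gene regions tested in both, with gene end regions in orange and gene body regions in blue. Squares mark regions called in both biopsies, triangles those called in 1 and open circles the rest, and each square lies above 0 on both axes or below 0 on both.

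Summed over regions, the separation of gene bodies from gene ends was present in each mouse. Summed CPM per kb in the 58 tested gene body regions was 10.3 ± 0.806 (SD, n = 6) in H3K9me2 and 8.19 ± 0.235 in input of the area at risk, and 10.8 ± 0.724 and 8.13 ± 0.243 in the remote myocardium. In the 52 gene end regions it was 6.51 ± 0.320 against 7.12 ± 0.360, and 6.69 ± 0.250 against 7.41 ± 0.245. The log2 ratio of H3K9me2 to input of the same mouse ran from 0.31 to 0.55 in gene bodies of the remote myocardium and from 0.17 to 0.45 in those of the area at risk, and all 12 values were above 0. At gene ends it ran from -0.21 to -0.10 and from -0.16 to -0.09, and all 12 were below 0. Gene ends on the receptor gene alone had a mean of 0.09 ± 0.06 in the remote myocardium and 0.10 ± 0.14 in the other biopsy, whereas those shared with another coding gene had -0.30 ± 0.05 and -0.28 ± 0.08. These sums lean on the longest and most abundant regions.

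**Figure D5:**
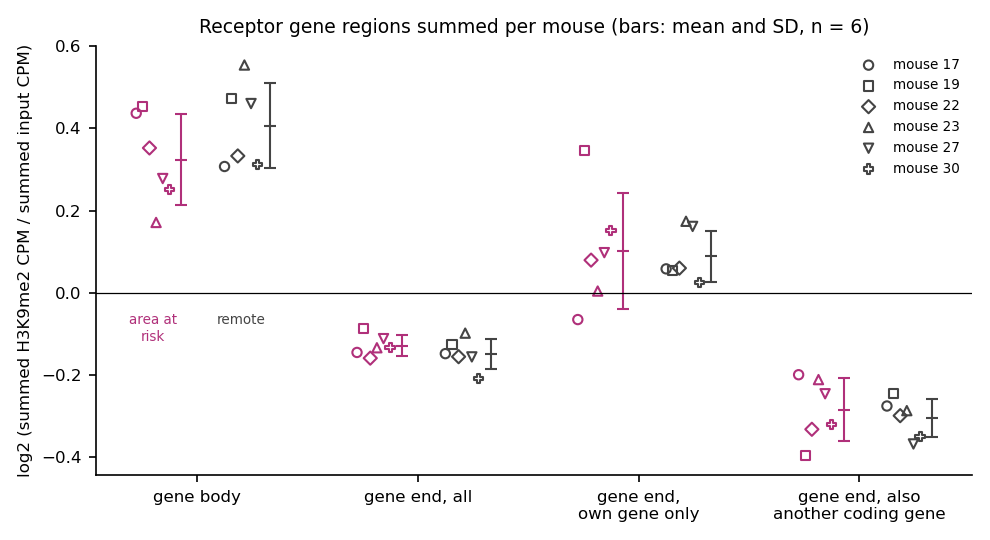
Log2 ratio of summed H3K9me2 CPM to summed input CPM (vertical axis) for receptor gene bodies, all gene ends and gene ends with and without another coding gene (horizontal axis). Each symbol is 1 of the 6 mice, magenta for the area at risk and grey for the remote myocardium, and bars give the mean and SD; gene bodies lie above 0 and the sum over all gene ends below 0 in each mouse.

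A direct comparison of the biopsies addresses whether occluded tissue carried the mark differently on these genes. No receptor gene region passed. edgeR called 0 of 96 tested regions (0% of all tested regions), with 6 at an unadjusted p under 0.05 beside 4.03% of all regions. DESeq2 called none either (0, and 2 with p under 0.05 before adjustment). The median log2 fold change of area at risk over remote myocardium was -0.06 in gene bodies and -0.01 at gene ends. The lowest p belonged to the region outside Chrm4 that also touches Dgkz and Mdk. It held 11.9, 22.1 and 28.7 CPM in the area at risk and 6.24, 12 and 20.3 CPM in the remote myocardium. Those ranges overlapped (0.59, SE 0.26, adjusted p = 0.999). The Chrna4 region at the start of the gene held 26.5, 30.9 and 38.8 CPM against 35.3, 40.3 and 55.9 CPM, also overlapping (-0.39, SE 0.18, adjusted p = 0.999). Next on the higher side were Chrnb1 (0.57), Grin3b (0.36) and Chrng (0.39), and on the lower side Grm4 (-0.43), Grik4 (-0.41) and Htr4 (-0.38), none of which passed.

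No tested receptor region was called between the inputs of the biopsies either. edgeR called 0 of 114 (0% of all tested regions), with 4 at an unadjusted p under 0.05 beside 2.72% of all regions, and DESeq2 called 0 with 2 such regions. The Chrnd region that covers the start site of Prss56 had the smallest p, at -0.22 (SE 0.08, adjusted p = 1.00). The other regions named by p were those of Chrna1 (0.40), Grm4 (0.29 and -0.40), Chrng (0.29), Grik4 (0.18), Chrnb2 (-0.48) and Grik5 (-0.42). For the difference between biopsies after taking off their inputs, the interaction term over 24 libraries, edgeR called 0 of 113 regions (0% of all), with 2 at an unadjusted p under 0.05 (4 with the mouse as block) beside 4.07% of all. Chrm4 had 0.77 (SE 0.31) in the same region outside its gene and, in a neighbouring region, -0.93 (SE 0.47). Chrne (0.65), Grin3b (0.32), Grin2d (0.40 and -0.64), Grm4 (-0.51) and Chrna4 (-0.40) followed, all at adjusted p = 1.00.

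The genes around the receptors were described by lists of partners, transmitter enzymes and other receptors. Of 22 tested receptor partner genes, which encode auxiliary subunits and scaffold proteins, 10 had higher regions and 8 lower ones in the remote myocardium. Of all 11529 coding genes with a tested region 18.3% had higher regions only, 43.3% lower ones only and 4.27% both, and in the area at risk these shares were 11.6%, 34.4% and 1.47% of 11532. Genes differ in their number of regions, which these shares do not take into account. Shisa9, an auxiliary subunit of AMPA receptors, had 1.06 (edgeR adjusted p = 1.87e-11) and Cnih2, another, -1.13 (adjusted p = 1.35e-07). In the area at risk 9 of 23 were higher and 6 lower. Of 14 genes of transmitter synthesis, transport and breakdown 8 were higher and 4 lower in the remote myocardium, among them Ddc, which makes serotonin and dopamine, at 0.84 (adjusted p = 1.41e-06), and Glul, glutamine synthetase, at -0.91 (adjusted p = 6.27e-05). In the area at risk 5 were higher and 2 lower. Of 21 genes for receptors of other transmitters 6 were higher and 3 lower, such as Gabbr2, a GABA-B subunit, at 0.60 (adjusted p = 9.55e-05) and the purinergic channel gene P2rx1 at -0.65 (adjusted p = 0.0125). In the area at risk 4 were higher and 1 lower. Their median log2 fold changes in the remote myocardium were 0.11, 0.03 and 0.10, beside 0.01 for all tested regions.

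Marker genes of heart muscle, the labelled tissue, had no region called above input. In the remote myocardium 11 of 20 regions of 8 cardiomyocyte genes were lower, with a median of -0.57 and -1.74 (adjusted p = 6.06e-08) for Atp2a2, which encodes the SERCA calcium pump. In the area at risk 5 of 20 were lower, with a median of -0.47. Over all tested regions 20.5% were higher and 20% lower in the remote myocardium, and 11.3% and 12.3% in the area at risk. Marker regions were not split into gene ends and gene bodies. Regions of 6 neuron and glia marker genes lay on both sides, with 16 of 51 higher, all in 2 of the genes, and 6 lower, and a median of 0.19. Fibroblast markers (2 of 9 higher, 4 lower), endothelial and mural markers (2 of 35 higher, 7 lower) and immune markers (2 of 5 higher, 2 lower) also had calls on both sides. Rbfox3, a neuronal splicing factor, had regions at 0.76 (adjusted p = 2.96e-06) and -0.46 (adjusted p = 0.00226).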

How the data were processed

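The authors deposited 4 tables of whole-number counts, 1 for each region in each library, over the same 53386 regions of mm10, with 12 libraries each. Per the submitters' processing notes, Bowtie2 2.2.2, SICER 1.1 and edgeR were used, and how regions were called and reads counted is not given in the sources used here. The deposited tables also hold a log2 fold change, a log2 mean CPM and, for every region, a p-value and an FDR, per the file headers. By the authors' deposited FDR, 28 receptor regions passed 0.05 in the area at risk against input, 44 in the remote myocardium against input and 0 in both comparisons of biopsies. A library's counts were the same in each table that lists it.

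Regions were joined to RefSeq genes of GRCm38.p6 with Python 3.11.15, and 2 noncoding genes with matching symbols were left out. Counts were fitted over all regions with edgeR 4.0.16 (R 4.3.3, filterByExpr, TMM, quasi-likelihood test, two-sided), 12 libraries per contrast and 24 for the interaction, and every adjusted p is from that test. Alternatives, with DESeq2 1.42.0 among them, are in the closing section. The fitting steps were also run on simulated counts drawn independently, with no effect of the mouse, and no result here rests on that run. CPM are TMM-scaled, and per-mouse ratios used a pseudocount of 0.5 CPM.

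Members and lists were chosen with earlier results of these data known. Genes were named by rule: up to 10 per direction in each comparison with input, 4 per side in each comparison of biopsies, the gene of smallest p in each receptor class and each list side, those called both ways, and Chrm2 and Htr2b. Chrnd, Grm8, Htr3b and further regions of named genes were added after their values were seen, to cover all called genes. The calls of these added regions were not examined singly in DESeq2 or without 1 mouse. A missing remark on them therefore says nothing of their stability. Mouse numbers pair the libraries because they stand for the same animal. Deviations of same-mouse libraries correlated from -0.17 to 0.06 between H3K9me2 biopsies, -0.01 to 0.17 and 0.01 to 0.08 between H3K9me2 and input, and -0.08 to 0.03 between inputs. Chi-square per region between libraries of a group ran from 1.02 to 2.03, above sampling noise, so none was counted as a copy. Each mouse gives 1 biopsy per group, so the replicates within a group are animals. The main fits, the interaction among them, held no term for the mouse. Libraries of the same mouse in different groups were therefore treated as independent. The quasi-likelihood test shares its estimate of spread over all fitted regions. A p-value therefore does not measure the spread between animals in its own region alone.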

Additional observations from a re-analysis of the deposited data

Results flagged for a closer look

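In the 43 regions named, each of the 4 groups was screened for a library far from the other 5, by its gap to the nearest one as a share of the group's range (Dixon's test). Of 172 groups 11 held one, and chance gives about 1 in 20. Mouse 19 was highest in H3K9me2 of the area at risk for Grik4 from 42620200 (62.9 CPM, next 41.2), Grik3 from 125576800 (61 CPM, next 38.8) and Chrna1 from 73560000 (44.4 CPM, next 20.9). It was lowest in H3K9me2 of the remote myocardium for Grik4 from 42685400 (26.4 CPM, next 42.4) and in input of the area at risk for Chrnb1 from 69795800 (9.25 CPM, next 16.1). Mouse 17 was highest in H3K9me2 of the area at risk for Grin2d from 45872400 (16.9 CPM, next 10.8) and in remote input for Chrm5 from 112492000 (23.5 CPM, next 19.1). It was lowest in H3K9me2 for Chrnb1 from 69788400 in the area at risk (10.1 CPM, next 19.1) and for Chrnd from 87182800 in the remote myocardium (50.8 CPM, next 67). In input of the area at risk, mouse 30 was lowest for Chrna4 from 181027600 (15.9 CPM, next 26.2) and mouse 22 highest for Chrnb1 from 69788400 (33.6 CPM, next 19.3).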

How the results depend on the processing

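With the mouse as replicate block, 27 receptor regions were called in the area at risk against input, including all 24, and 47 in the remote myocardium, all among the 48, with no change of sign; the pairing moved no count of calls by over 1.5 times. Regions with an unadjusted p under 0.05 in the input-corrected biopsy difference numbered 2 without the pairing and 4 with it, and none was called in either. Scaling by median-of-ratios or by totals alone left 24 to 26 and 48 calls. Over the alternatives run, 630 of 673 values of counts and medians kept within their limits, and of 600 values of named regions 560 kept their side of the threshold, while 40 in 12 of 61 results fell below it with the same sign. None reversed. DESeq2 was not run on the interaction.

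In the area at risk the higher regions numbered 11 (10 in gene bodies) in DESeq2 and at an FDR of 0.01, 11 (10) without Grik4 and 7 (6) without Grik4 and Grik3, which left 14 calls in all. The lower ones numbered 4, all at gene ends, among regions that overlap no other and with no flank, and 0 among regions that touch no other coding gene. Leaving out 1 mouse gave 8 to 20 higher regions, 7 to 19 of them in gene bodies, and 13 to 29 calls in all, the lowest without mouse 19. In the remote myocardium the lower regions numbered 9 in DESeq2 and 7 at an FDR of 0.01, all at gene ends, 8 (7 at gene ends) among regions that overlap no other, and 3 on the receptor gene alone. The higher ones numbered 21 (16 in gene bodies) without Grik4 and 16 (11) without Grik4 and Grik3, with 29 calls in all. The gene end median there moved from -0.17 to 0.0020 among regions that overlap no other, -0.057 with no flank, -0.067 with a flank of 5 kb, 0.046 on the receptor gene alone, -0.11 without Grik4 and -0.057 without both, and ran from -0.18 to -0.10 when 1 mouse was left out. The body median without both was 0.18. The omissions of Grik4 and Grik3 were chosen after seeing the data, and the cause of the other shifts was not tested.

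H3K9me2 libraries held fewer reads than inputs. Regions with few reads, 30 of 140, could not be tested against input, and an equal rise of the mark everywhere cannot be seen.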
